A study of Homo sapiens with 6 samples.

Results

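The genes described here encode the subunits of the proteasome and the proteins that activate or assemble it. They were chosen by name, as the protein-coding genes of the deposited table whose symbols begin with PSMA, PSMB, PSMC, PSMD, PSME, PSMF or PSMG followed by a number. Of 58735 genes, 49 matched. One of them, PSMC3IP, carries such a name because its product binds another protein with a PSM name. It acts in meiotic recombination and is no proteasome part, so it was kept apart and 48 genes were placed in 4 classes. There were 19 genes of the 20S core (PSMA and PSMB), 20 of the 19S regulatory particle (PSMC and PSMD), 5 activators and inhibitors (PSME and PSMF) and 4 assembly chaperones (PSMG). They lie on 17 chromosomes.

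The proteasome is the main protease for ubiquitin-tagged proteins in the cytosol and nucleus. Its 20S core is a barrel of stacked rings in which α subunits form the gate and β subunits hold the proteolytic sites. The 19S particle caps the barrel, with a ring of ATPases that unfolds the substrate and a group of non-ATPase subunits that bind ubiquitin chains and cut them off. Because the subunits are needed in fixed proportions, their genes are known for being regulated together, in mammals largely by the transcription factor NFE2L1 acting through antioxidant response elements in their promoters. Interferon replaces the catalytic β subunits with PSMB8, PSMB9 and PSMB10, which form the immunoproteasome.

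The study measured RNA by sequencing in BxPC-3, an established human pancreatic cancer line. The treated group, called PRMT5i here, had 3 libraries from cells given GSK3326595, an inhibitor of the arginine methyltransferase PRMT5, and the control group had 3 libraries labelled DMSO, the solvent. The series' design text speaks of a knockdown of PRMT5, while every sample label names the inhibitor. All libraries come from 1 cell line, and neither dose nor duration of treatment appears in the labels. Nothing in the labels ties replicate libraries to separate cultures. Every p-value here therefore reflects variation among 6 libraries that may be technical.

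Between 14087260 and 15724750 reads per library were recovered from the deposited FPKM values (fragments per kilobase of gene, after scaling for depth). PRMT5 itself had 13.4, 12.8 and 12.1 FPKM in PRMT5i libraries, against 23.2, 24.6 and 26.2 FPKM in DMSO libraries, which does not test the inhibitor, since the drug acts on the enzyme and not on its RNA. PRMT5i replicate 2 stood apart from the other libraries. Across genes its log2 values correlated with those of PRMT5i replicates 1 and 3 at r = 0.906 and 0.904, while replicates 1 and 3 correlated at 0.980. Mitochondrial genes took 11.3% of its reads, against 6.03% and 5.84% in PRMT5i replicates 1 and 3 and 4.70% to 5.01% in DMSO libraries. Of its reads on nuclear coding genes, those under 1500 bases took 1.09%, against 2.27% to 2.61% in the other 5 libraries. Counts and fold changes are therefore given with and without this library, and what sets it apart was not tested. Of 10 epithelial and ductal markers, 5 were at 1 FPKM or more in every library, among them KRT7, KRT8, KRT18 and MUC1. KRT19, CEACAM6 and PDX1, which also mark ductal carcinoma lines, were at 0 reads in all 6. EPCAM and CDH1, also among the 10, were near 0. That the cells are BxPC-3 rests on the labels, and the identity of the line was not tested. With all libraries 1 epithelial marker was lower (KRT7) and 1 higher, of 5 tested. The 3 fibroblast markers summed to 10.3 to 15.5 FPKM in PRMT5i libraries and 5.09 to 5.68 FPKM in DMSO libraries. PDGFRB was the 1 of the 3 that passed the test with all libraries, as higher. Without PRMT5i replicate 2, 2 of the 3 passed as higher, against 17.5% of all genes. The part of these marker changes in the results below was not tested.

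The promoters of 4 genes are shown because these genes differ in how they moved. PSMC4 had the largest fall of all members, PSMA5 and PSMB3 are genes of the α and β rings that fell, and PSMD5 is a gene of a 19S chaperone that did not pass the test. They were picked after their values were seen. Each run is the 250 bases before the most upstream RefSeq start, 5′ to 3′ on the strand of the gene, from RefSeq on GRCh38.p14. They lie at chr19:39970915-39971164 on the plus strand (PSMC4), chr1:109426449-109426698 on the minus strand (PSMA5), chr17:38752491-38752740 on the plus strand (PSMB3) and chr9:120842923-120843172 on the minus strand (PSMD5). Capitals mark the core of an antioxidant response element, TGACNNNGC, and the CCAAT box, CCAAT, each searched on both strands.
PSMC4: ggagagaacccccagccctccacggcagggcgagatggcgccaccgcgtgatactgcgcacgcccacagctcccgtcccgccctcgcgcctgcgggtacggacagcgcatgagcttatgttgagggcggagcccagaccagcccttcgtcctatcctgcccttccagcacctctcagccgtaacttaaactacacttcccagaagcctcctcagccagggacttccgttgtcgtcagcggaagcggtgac
PSMA5: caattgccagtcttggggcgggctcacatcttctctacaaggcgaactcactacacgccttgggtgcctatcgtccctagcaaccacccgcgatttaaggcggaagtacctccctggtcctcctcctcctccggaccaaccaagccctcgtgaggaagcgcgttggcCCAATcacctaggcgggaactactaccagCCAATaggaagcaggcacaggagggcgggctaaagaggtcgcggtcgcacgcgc
PSMB3: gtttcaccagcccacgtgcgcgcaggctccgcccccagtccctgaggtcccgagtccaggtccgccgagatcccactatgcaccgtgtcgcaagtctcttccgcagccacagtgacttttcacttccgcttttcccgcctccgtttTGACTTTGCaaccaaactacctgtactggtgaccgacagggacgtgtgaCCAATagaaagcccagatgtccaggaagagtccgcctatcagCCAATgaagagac
PSMD5: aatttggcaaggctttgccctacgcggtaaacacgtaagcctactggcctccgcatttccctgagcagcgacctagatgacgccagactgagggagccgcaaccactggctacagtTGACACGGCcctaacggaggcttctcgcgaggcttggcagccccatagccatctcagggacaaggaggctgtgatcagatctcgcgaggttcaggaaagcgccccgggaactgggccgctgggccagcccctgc
The PSMB3 window held 1 antioxidant response element core, whose first base was at -104 from the start, and CCAAT boxes at -55 and -13. The PSMA5 window held CCAAT boxes at -83 and -54 and no element core. The PSMC4 window held neither motif, and the PSMD5 window held 1 element core at -134. Of the 48 genes, 42 matched a promoter. Among these 42 the element core was in 11 (26.2%), against 11.1% of the 27305 RefSeq promoter windows of the same length. It was in 1 of 10 matched constitutive 20S genes, 2 of 16 matched genes of structural 19S subunits, 3 of 5 activators, 2 of 3 matched assembly chaperones and 2 of 3 chaperones of the 19S base. The CCAAT box was in 18 of the 42 (42.9%), against 33.0% of all windows, and in 5 of the 10 matched constitutive 20S and 8 of the 16 matched 19S genes. These are matches of letters in a short window and no record of binding.

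Many genes of the 20S core and the 19S particle were lower in PRMT5i libraries. Of 5 activators 1 was lower, and of 4 assembly chaperones 0, and these classes are too small to set such counts against the share of all genes. Of the 48 genes, 45 passed the filter (3 or more of the 6 libraries with at least 1 FPKM), and 19 of these were lower and 0 higher at an adjusted p under 0.05 (limma on log2(FPKM + 1), Benjamini-Hochberg over the 13578 genes tested). Over all genes tested, 10.0% were lower and 7.18% higher. In bulk RNA, fewer expressing cells and less RNA per cell cannot be told apart. At an unadjusted p under 0.05, 29 of the 45 were lower and 0 higher, against 2712 of the 13578 genes tested that were lower. Without PRMT5i replicate 2, limma called 30 lower and 3 higher, against 23.1% lower and 17.5% higher over all genes, and all 19 genes called with every library were among the 30. The median log2 fold change of the 45 was -0.48, against -0.05 over all genes tested, and -0.49 against -0.05 without PRMT5i replicate 2. With limma-voom on the recovered reads, 20 of the 45 were lower and 0 higher, against 10.8% and 8.01% of all genes. These shares describe the members and are no test of them as a list.

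The number of calls changed when 1 library was left out, which also makes a group smaller. Limma called 7 and 10 proteasome genes lower without PRMT5i replicates 1 and 3, and 1, 2 and 2 without DMSO replicates 1, 2 and 3. PSMC4 was the 1 member that passed in all 6 fits that leave out a library. The direction held more widely than the calls. Of the 45 genes tested, 40 had a negative log2 fold change with all libraries and 38 without PRMT5i replicate 2. Over all 13578 genes tested, 7429 and 7433 were negative in these fits. In 31 of the 45 every PRMT5i library was below every DMSO library, a pattern that 26.7% of all genes tested showed. Among the 34 genes of the constitutive 20S and the whole 19S class, 33 were negative in both of these fits, and 28 did not overlap. The exception in sign was PSMD5. Setting aside 3 chaperones of the 19S base (PSMD5, PSMD9 and PSMD10), a division by function made after the values were seen, leaves 31 genes for structural subunits, which serve below as a description. Of these, 27 did not overlap with all libraries, and in 30 PRMT5i replicates 1 and 3 were below every DMSO library, against 36.4% of all genes. The median ratio of mean FPKM, PRMT5i over DMSO, was 0.661 over the 31, with a range of 0.445 to 0.850, and 0.654 without PRMT5i replicate 2. Relative to the mean of the DMSO libraries, the median log2 difference over the 31 was -0.57 in PRMT5i replicate 1, -0.56 in replicate 2 and -0.57 in replicate 3. PRMT5i replicate 2 had nearly the same median as its partners, but its genes were spread more widely, with an interquartile range of 0.48, against 0.25 and 0.24 in replicates 1 and 3.

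**Figure D1:**
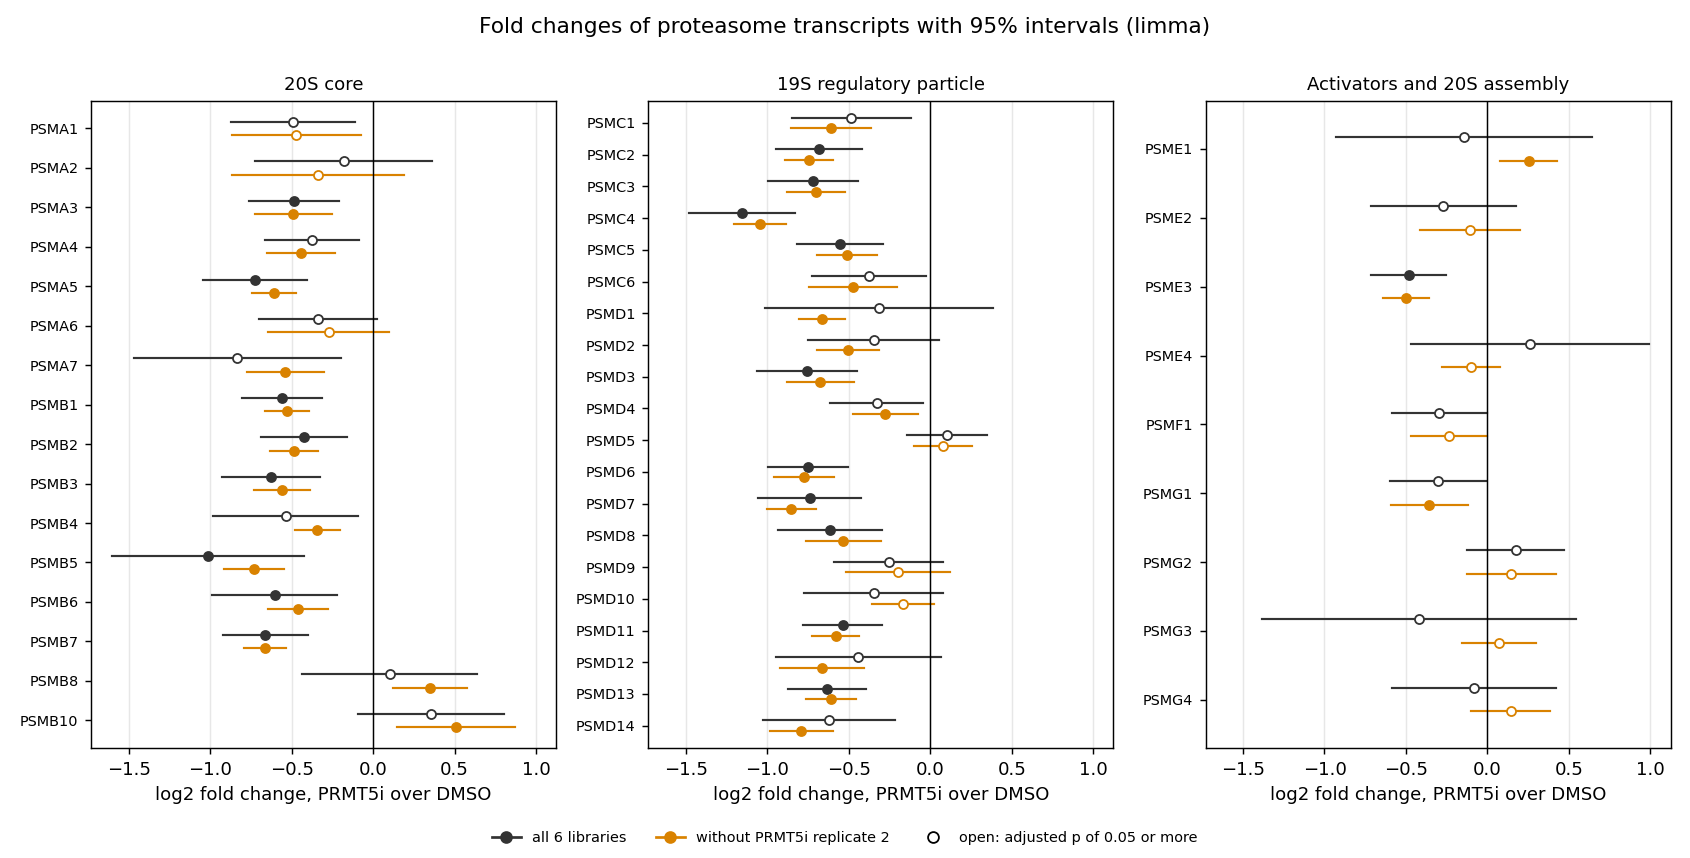
Log2 fold change (PRMT5i over DMSO, on the log2(FPKM + 1) scale) of the 45 proteasome genes tested, by class, with all libraries and without PRMT5i replicate 2; filled points passed an adjusted p under 0.05 in limma and bars are 95% confidence intervals. PSMB8, PSMB10 and PSMD5 lie to the right of 0, the other 20S and 19S genes to the left, down to -1.15 for PSMC4, and no assembly chaperone has a filled point with all libraries.

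In the 20S core, 8 of the 16 genes tested were lower with all libraries and 11 without PRMT5i replicate 2. Over all genes tested, 10.0% and 23.1% were lower in these fits. The decrease was clearest in the β ring. Of the 7 constitutive β genes, 6 passed with all libraries and 7 without PRMT5i replicate 2. In all 7 every PRMT5i library was below every DMSO library, a pattern that 26.7% of all genes tested showed. Together the 14 constitutive 20S genes summed to 752, 595 and 762 FPKM in PRMT5i libraries, against 1082, 1079 and 1165 FPKM in DMSO libraries. The sum in PRMT5i libraries was 0.634 of that in DMSO libraries, and 0.683 without PRMT5i replicate 2.

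PSMB5, the catalytic subunit with chymotrypsin-like activity and the main target of bortezomib, had 49.5, 27.1 and 49.2 FPKM in PRMT5i libraries, against 83.2, 76.6 and 88.4 FPKM in DMSO libraries. All PRMT5i libraries were below all DMSO libraries, and PRMT5i replicate 2 was far below its partners. PSMB5 had a log2 fold change of -1.01 with an SE of 0.25 (limma adjusted p = 0.0369), which was -0.73 with an SE of 0.07 without PRMT5i replicate 2 (limma adjusted p = 0.00137). PSMB7, the subunit with trypsin-like activity, had 126, 129 and 131 FPKM in PRMT5i libraries, against 199, 208 and 205 FPKM in DMSO libraries. Here replicate 2 stood with its partners and the groups were far apart. Its log2 fold change was -0.66 with an SE of 0.11 (limma adjusted p = 0.0124), and it was -0.66 without PRMT5i replicate 2 as well. It did not pass once trends on gene length and GC content were removed, at -0.48 (limma adjusted p = 0.0607). PSMB6, with caspase-like activity, had 76.6, 57.7 and 80.002 FPKM in PRMT5i libraries, against 104, 103 and 117 FPKM in DMSO libraries. The groups did not overlap, and the log2 fold change was -0.60 with an SE of 0.16 (limma adjusted p = 0.0470), and -0.46 without PRMT5i replicate 2.

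The non-catalytic β subunits complete the ring. PSMB3 had 121, 105 and 122 FPKM in PRMT5i libraries, against 171, 175 and 194 FPKM in DMSO libraries, and PSMB1 had 45.6, 43.6 and 47.5 FPKM in PRMT5i libraries, against 66.2, 68.1 and 68.6 FPKM in DMSO libraries. Both fell with no overlap between groups, by log2 fold changes of -0.63 with an SE of 0.13 and -0.56 with an SE of 0.10 (limma adjusted p = 0.0217 and 0.0170), and of -0.56 and -0.53 without PRMT5i replicate 2. PSMB2 had a log2 fold change of -0.42 with an SE of 0.11 (limma adjusted p = 0.0457), and -0.48 without that library. PSMB4 was the β gene that missed the threshold with all libraries. It had 104, 68.9 and 103 FPKM in PRMT5i libraries, against 128, 129 and 137 FPKM in DMSO libraries. Its log2 fold change was -0.53 with an SE of 0.18 (limma adjusted p = 0.0941), and -0.34 with an SE of 0.06 without PRMT5i replicate 2 (limma adjusted p = 0.00621).

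The products of the α genes form the gated outer rings. Of the 7 α genes tested, 2 were lower with all libraries and 4 without PRMT5i replicate 2, against 10.0% and 23.1% of all genes. PSMA5 had 30.8, 23.6 and 30.0 FPKM in PRMT5i libraries, against 46.2, 47.8 and 46.3 FPKM in DMSO libraries. The groups were well apart, with a log2 fold change of -0.72 and an SE of 0.13 (limma adjusted p = 0.0175), and -0.61 without PRMT5i replicate 2. The median over the 7 α genes tested was -0.48 with all libraries and -0.47 without that library. PSMA3 averaged 14.9 ± 0.848 FPKM in PRMT5i libraries and 21.2 ± 1.86 FPKM in DMSO libraries (SD, n = 3 each), with a log2 fold change of -0.48 and a limma adjusted p of 0.0347, and -0.49 without PRMT5i replicate 2. PSMA7 was among the most abundant of all members, with 137, 75.6 and 143 FPKM in PRMT5i libraries, against 198, 187 and 230 FPKM in DMSO libraries. All PRMT5i libraries were below all DMSO libraries, and replicate 2 was far below its partners. The fold change of -0.83 on the log2 scale had an SE of 0.26 and missed the threshold (limma adjusted p = 0.0756). Without PRMT5i replicate 2 it was -0.54 with an SE of 0.10, and PSMA7 and PSMA4 (log2 fold change -0.44, and -0.37 with all libraries) both passed (limma adjusted p = 0.00785 and 0.00991).

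PSMA1, PSMA2 and PSMA6 passed in neither fit. Their log2 fold changes were -0.49, -0.18 and -0.34 with all libraries (limma adjusted p = 0.0777, 0.606 and 0.165) and -0.47, -0.34 and -0.27 without PRMT5i replicate 2. These 3 genes share 24.7%, 14.6% and 14.1% of their exon bases with readthrough genes on the same strand, so their counts are uncertain. PSMA2 and PSMA6 were also the lowest of the constitutive subunits per length, at 1.001 ± 0.415 and 0.793 ± 0.211 FPKM in PRMT5i libraries and 1.27 ± 0.494 and 1.26 ± 0.189 FPKM in DMSO libraries (SD, n = 3 each). They have 3 and 4 pseudogenes in the table, and their listed lengths, 5336 and 6506 bases, count the exons of all isoforms. FPKM levels therefore do not show the relative amounts of subunits that the complex holds in equal number. PSMA8, a testis form, and PSMB11, a thymus form, had 0 reads in all 6 libraries, which allows up to 0.0174 and 0.0156 FPKM at 3 reads over all libraries.

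**Figure D2:**
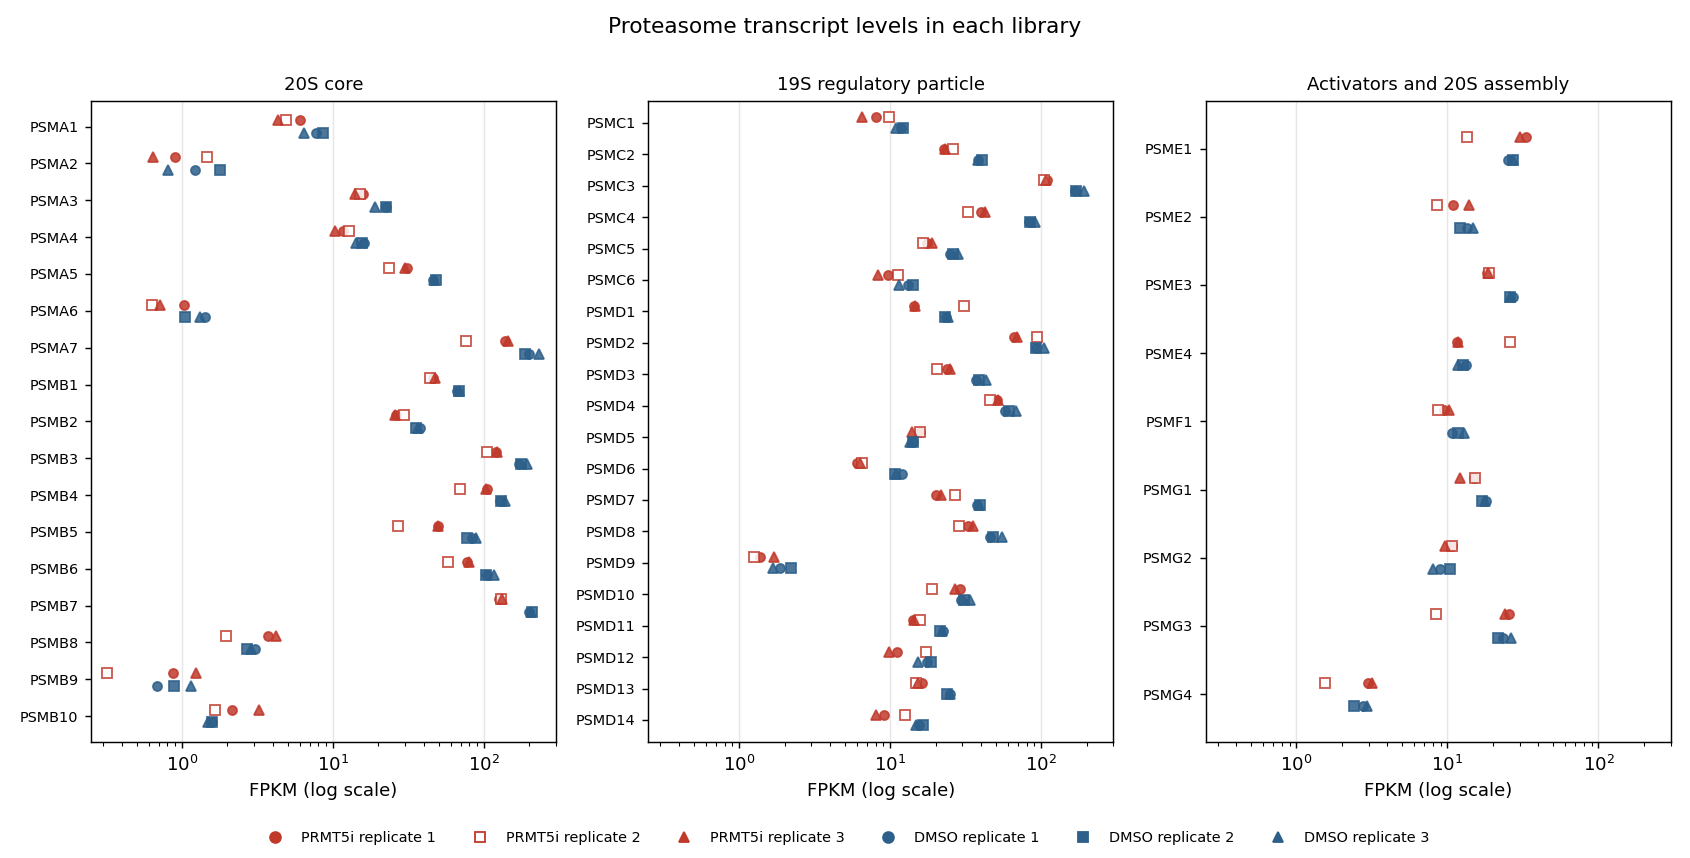
FPKM (log axis) of the proteasome genes with reads, by class, in each library; the 3 PRMT5i libraries and the 3 DMSO libraries are marked by colour, with PRMT5i replicate 2 as open squares. Most 20S and 19S genes have their PRMT5i points below their DMSO points, and PRMT5i replicate 2 lies away from its partners for genes such as PSMA7 and PSMD1.

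In the 19S particle, 10 of the 20 genes were lower with all libraries and 17 without PRMT5i replicate 2, against 10.0% and 23.1% of all genes. The 17 are the genes of structural subunits. The 3 that did not pass are those of the chaperones set aside above, which assemble the base and leave the finished particle. This split is one of calls and not of the size of each fall. Without PRMT5i replicate 2 the ratio of mean FPKM, PRMT5i over DMSO, was 0.803 for the chaperone gene PSMD9 and 0.821 for PSMD4, a structural gene that passed. It was 0.886 for PSMD10 and 1.06 for PSMD5. The 6 ATPase genes summed to 207, 200.4 and 206 FPKM in PRMT5i libraries, against 339, 348 and 370.2 FPKM in DMSO libraries, a ratio of 0.580, and of 0.586 without PRMT5i replicate 2. The 14 non-ATPase genes summed to 309.8, 349 and 314 FPKM in PRMT5i libraries, against 432, 439.6 and 471 FPKM in DMSO libraries, a ratio of 0.724, and of 0.697 without PRMT5i replicate 2.

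PSMC4, an ATPase of the ring on chromosome 19 (hg38, 39971005 to 39981441, plus strand), showed the largest fall of all members. It had 39.7, 32.5 and 42.3 FPKM in PRMT5i libraries, against 82.9, 83.9 and 90.3 FPKM in DMSO libraries. Every PRMT5i library was far below every DMSO library. The log2 fold change was -1.15 with an SE of 0.13 and a 95% confidence interval of -1.48 to -0.83 (limma adjusted p = 0.00493), and the highest adjusted p in the 6 limma fits that leave out a library was 0.0369. It was -1.05 with an SE of 0.07 when PRMT5i replicate 2 was left out. The mean in PRMT5i libraries was 55.5% below that in DMSO libraries.

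The other ATPase genes fell by less. PSMC3 had 109.7, 104 and 107 FPKM in PRMT5i libraries, against 168, 171 and 191 FPKM in DMSO libraries, and PSMC2 had 22.7, 26.1 and 23.0 FPKM in PRMT5i libraries, against 38.1, 40.6 and 38.1 FPKM in DMSO libraries. Neither gene had overlapping groups, and their log2 fold changes were -0.72 and -0.68 (limma adjusted p = 0.0116 for both), and -0.70 and -0.74 without PRMT5i replicate 2. PSMC3 did not pass once trends on gene length and GC content were removed, at -0.51 (limma adjusted p = 0.0631). PSMC5 had a log2 fold change of -0.55 with an SE of 0.11 (limma adjusted p = 0.0209), and -0.51 without PRMT5i replicate 2. PSMC1 and PSMC6 missed the threshold with all libraries, at log2 fold changes of -0.48 and -0.38 (limma adjusted p = 0.0743 and 0.121). Without PRMT5i replicate 2 they were -0.61 and -0.48 and passed (limma adjusted p = 0.00598 and 0.0181). PSMC1 shares 75.8% of its exon bases with a gene on the other strand and has 13 pseudogenes in the table, and PSMC5 shares 19.5% with a gene on the other strand. Their counts are therefore uncertain.

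Among the lid subunits, which hold the deubiquitinase, PSMD6 had 6.005, 6.54 and 6.27 FPKM in PRMT5i libraries, against 11.98, 10.8 and 10.9 FPKM in DMSO libraries. The groups were far apart, with a log2 fold change of -0.75 and an SE of 0.10 (limma adjusted p = 0.00734), and PSMD6 passed in 5 of the 6 limma fits that leave out a library, with -0.77 in the fit without PRMT5i replicate 2. It was also the least abundant of the structural 19S genes. PSMD3 had 23.8, 20.3 and 24.99 FPKM in PRMT5i libraries, against 36.9, 38.6 and 43.4 FPKM in DMSO libraries, and PSMD7 had 20.2, 26.7 and 21.6 FPKM in PRMT5i libraries, against 37.6, 39.1 and 38.9 FPKM in DMSO libraries. Both fell with no overlap, by log2 fold changes of -0.76 and -0.74 (limma adjusted p = 0.0138 and 0.0158), and of -0.67 and -0.85 without PRMT5i replicate 2. PSMD7 shares 30.7% of its exon bases with a gene on the other strand. PSMD8, PSMD11 and PSMD13, further lid subunits, fell, with log2 fold changes of -0.61, -0.54 and -0.63 (limma adjusted p = 0.0269, 0.0184 and 0.0112), and of -0.53, -0.58 and -0.61 without PRMT5i replicate 2.

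PSMD14, the lid deubiquitinase that removes ubiquitin from the substrate, had 9.06, 12.6 and 8.09 FPKM in PRMT5i libraries, against 15.4, 16.4 and 14.9 FPKM in DMSO libraries. The groups did not overlap, and PRMT5i replicate 2 was the library nearest to the DMSO values. The log2 fold change was -0.62 with an SE of 0.17 (limma adjusted p = 0.0502), and -0.79 with an SE of 0.08 without PRMT5i replicate 2 (limma adjusted p = 0.00133). PSMD12, another lid subunit, went the same way, with log2 fold changes of -0.44 and, without PRMT5i replicate 2, -0.66 (limma adjusted p = 0.188 and 0.00510).

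PSMD1 and PSMD2 form the scaffold of the base, and there PRMT5i replicate 2 had the highest value of its group. PSMD1 had 14.4, 31.0 and 14.5 FPKM in PRMT5i libraries, against 23.4, 23.0 and 24.0 FPKM in DMSO libraries. Replicates 1 and 3 were below all DMSO libraries and replicate 2 above all of them. Over the 6 libraries the log2 fold change was -0.32 with an SE of 0.29 (limma adjusted p = 0.476), and -0.67 with an SE of 0.06 without PRMT5i replicate 2 (limma adjusted p = 0.000918). PSMD2 had 65.7, 93.8 and 69.3 FPKM in PRMT5i libraries, against 92.3, 91.8 and 105 FPKM in DMSO libraries, and likewise passed only without PRMT5i replicate 2, at a log2 fold change of -0.50, against -0.35 with all libraries (limma adjusted p = 0.00485 and 0.192). PSMD4, a ubiquitin receptor of the particle, had the smallest fall of the structural 19S subunits in the fit without PRMT5i replicate 2, with a log2 fold change of -0.28 (limma adjusted p = 0.0397), and missed the threshold with all libraries at -0.33 (limma adjusted p = 0.105).

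The 3 chaperone genes of the base that carry PSM names passed in neither fit. PSMD5 had 15.6, 15.6 and 14.0 FPKM in PRMT5i libraries, against 14.2, 14.1 and 13.6 FPKM in DMSO libraries. Its values in PRMT5i replicates 1 and 2 were above every DMSO value and that in replicate 3 lay within the DMSO range. Its log2 fold change was 0.10 with a 95% confidence interval of -0.14 to 0.35 (limma adjusted p = 0.511), and it was 0.08 without PRMT5i replicate 2. PSMD10 and PSMD9 had log2 fold changes of -0.35 and -0.26 (limma adjusted p = 0.213 and 0.238), which were -0.17 and -0.20 without PRMT5i replicate 2 (limma adjusted p = 0.136 and 0.266). PSMD9 was the least abundant 19S gene, at 1.44 ± 0.230 FPKM in PRMT5i libraries and 1.91 ± 0.273 FPKM in DMSO libraries (SD, n = 3 each), and 19.9% of its exon bases are shared with other genes on its strand.

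PRMT5i replicate 2 departed from its partners along gene length. Over the 31 structural genes, the Spearman correlation between listed length and the log2 difference of replicate 2 from the mean of replicates 1 and 3 was 0.608. It is a description over genes of the same libraries. Long genes such as PSMD1 (5187 bases) were high in that library and short ones such as PSMB5 (1765 bases) and PSMA7 (1750 bases) were low. Not every gene followed length, since PSMA5 (5724 bases) was low there and PSMB7 (1787 bases) stood with its partners. The correlation between length and log2 fold change was 0.388 over the same 31 genes with all libraries and 0.002 without PRMT5i replicate 2. Between mean DMSO FPKM and log2 fold change it was -0.480 and -0.158. Length and mean DMSO FPKM were themselves correlated at -0.787 over the 31, so length and level cannot be told apart here. With smooth trends on gene length and GC content removed from every library, limma called 23 of the 45 lower and 1 higher (PSMB10), against 15.2% lower and 14.1% higher over all genes. Of the 19 genes called lower without that step, PSMB7 and PSMC3 were not among the 23.

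**Figure D3:**
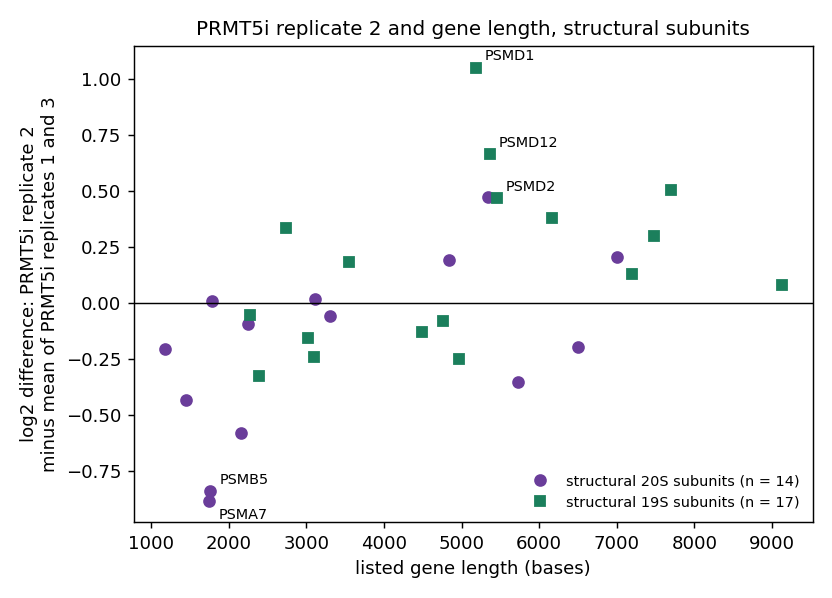
Log2 difference of PRMT5i replicate 2 from the mean of PRMT5i replicates 1 and 3 against listed gene length in bases, 1 point for each of the 31 genes of structural subunits, with 20S and 19S marked apart. Short genes such as PSMB5 and PSMA7 lie below 0, and PSMD1, PSMD12 and PSMD2, which are longer, lie above 0.

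The immunoproteasome genes did not follow the constitutive β genes that they replace. PSMB8, the counterpart of PSMB5, had 3.68, 1.94 and 4.22 FPKM in PRMT5i libraries, against 3.05, 2.71 and 2.86 FPKM in DMSO libraries. PRMT5i replicates 1 and 3 were above every DMSO library and replicate 2 was below every one. The log2 fold change was 0.10 with an SE of 0.22 (limma adjusted p = 0.773), and 0.35 with an SE of 0.09 without PRMT5i replicate 2 (limma adjusted p = 0.0277). PSMB10, the counterpart of PSMB7, had 2.14, 1.65 and 3.21 FPKM in PRMT5i libraries, against 1.59, 1.58 and 1.49 FPKM in DMSO libraries. All its PRMT5i values were above all DMSO values, and it passed only without PRMT5i replicate 2, at a log2 fold change of 0.51, against 0.36 with all libraries (limma adjusted p = 0.0374 and 0.224). PSMB9, the counterpart of PSMB6, had 0.874, 0.316 and 1.24 FPKM in PRMT5i libraries, against 0.687, 0.889 and 1.14 FPKM in DMSO libraries. These overlap, and PSMB9 did not pass the filter on low values and was not tested. The depth behind these values was low, with 41 to 97 reads for PSMB10 and 13 to 62 for PSMB9 in a library. PSMB8 shares 20.6% of its exon bases with genes on the other strand, and PSMB10 shares 34.7% with a gene on its own strand.

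A ratio within a library does not depend on the scaling between libraries. PSMB8 stood at 7.44%, 7.17% and 8.56% of the PSMB5 level per length in PRMT5i libraries, against 3.67%, 3.54% and 3.24% in DMSO libraries. All PRMT5i libraries, replicate 2 included, were well above all DMSO libraries, at means of 7.72% ± 0.739 and 3.48% ± 0.221 (SD, n = 3 each; exact permutation test, two-sided, p = 0.1, the smallest that 3 against 3 allows). PSMB10 stood at 1.70%, 1.28% and 2.44% of PSMB7 in PRMT5i libraries, against 0.798%, 0.762% and 0.728% in DMSO libraries. These groups did not overlap (exact permutation test, two-sided, p = 0.1). PSMB9 stood at 1.08% ± 0.503 of PSMB6 in PRMT5i libraries and 0.833% ± 0.161 in DMSO libraries (SD, n = 3 each), and these overlapped (exact permutation test, two-sided, p = 0.5). When PRMT5i replicate 2 was left out, the PRMT5i means were 8.003%, 2.07% and 1.34% for the PSMB8, PSMB10 and PSMB9 ratios. With 3 libraries against 3 this exact permutation test cannot pass 0.05 for any of the 3 ratios, before or after adjustment over them. A ratio shows unequal change and does not say which of its genes moved. In PRMT5i replicate 2, PSMB8 was itself below every DMSO library, at 1.94 FPKM, and PSMB5 was at 27.1 FPKM. Their listed lengths differ, at 2997 bases for PSMB8 and 1765 for PSMB5. The part of gene length in the ratio of that library was not tested.

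**Figure D4:**
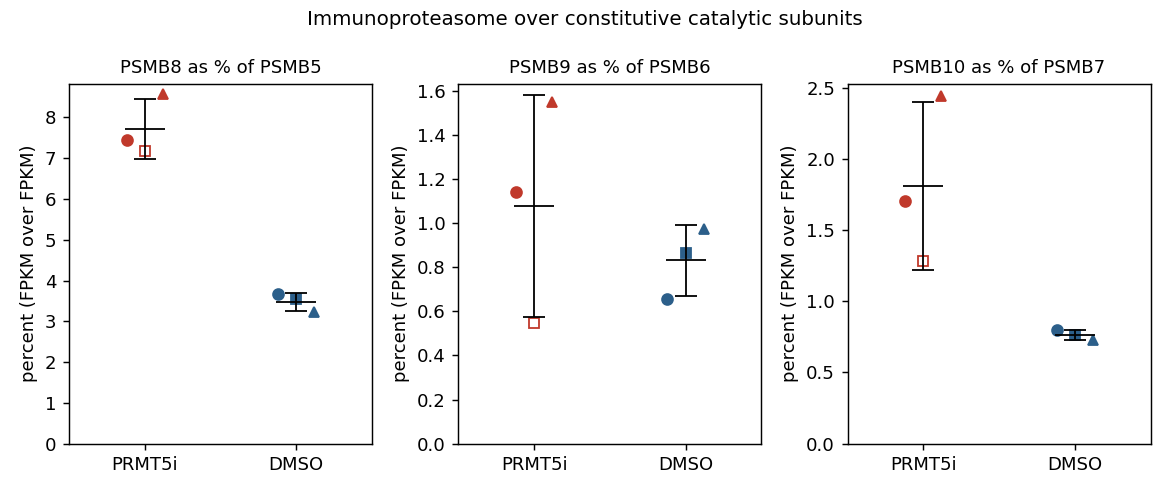
FPKM of PSMB8, PSMB9 and PSMB10 as a percent of PSMB5, PSMB6 and PSMB7 in each library; points are libraries (the open square is PRMT5i replicate 2) and bars are means with SD. PSMB8 to PSMB5 lies between 7.17% and 8.56% in PRMT5i libraries and between 3.24% and 3.67% in DMSO libraries, while the PSMB9 to PSMB6 groups overlap.

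The activators and the inhibitor moved little as a class, with summed FPKM in PRMT5i libraries at 0.896 of that in DMSO libraries, and 0.927 without PRMT5i replicate 2. PSME3, the nuclear activator, was the 1 of 5 that passed with all libraries. It had 18.3, 18.9 and 18.4 FPKM in PRMT5i libraries, against 27.0, 26.0 and 26.0 FPKM in DMSO libraries. The groups were far apart, and the log2 fold change was -0.48 with an SE of 0.10 (limma adjusted p = 0.0210), and -0.50 without PRMT5i replicate 2. PSME1, a subunit of the interferon-inducible activator, had 33.4, 13.4 and 30.2 FPKM in PRMT5i libraries, against 25.3, 27.1 and 27.0 FPKM in DMSO libraries. PRMT5i replicate 2 was below every DMSO library and its partners were above. The log2 fold change turned with that library, at -0.14 with an SE of 0.33 when it was included (limma adjusted p = 0.786) and 0.25 with an SE of 0.07 when it was not (limma adjusted p = 0.0345). PSME2, the partner of PSME1, had a log2 fold change of -0.27 (limma adjusted p = 0.338), which was -0.11 without PRMT5i replicate 2 (limma adjusted p = 0.521). PSME4, which caps the core without ATP, had 11.6, 26.1 and 11.7 FPKM in PRMT5i libraries, against 13.3, 12.7 and 11.8 FPKM in DMSO libraries. It is one of the longest genes of the set (10241 bases), PRMT5i replicate 2 alone was high, and it passed in neither fit. Its log2 fold change was 0.26 with all libraries (limma adjusted p = 0.571) and turned to -0.10 without PRMT5i replicate 2 (limma adjusted p = 0.299). PSMF1, an inhibitor of the core in vitro, had a log2 fold change of -0.30 (limma adjusted p = 0.140), and -0.24 without PRMT5i replicate 2 (limma adjusted p = 0.0930).

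The chaperones that assemble the 20S core, PSMG1 to PSMG4, gave 0 lower and 0 higher of 4 with all libraries, against 10.0% and 7.18% of all genes. At an unadjusted p under 0.05 only PSMG1 of the 4 was lower, against 2712 of the 13578 genes tested. Limma-voom on the recovered reads also called 0 of the 4. PSMG1 averaged 14.1 ± 1.70 FPKM in PRMT5i libraries and 17.6 ± 0.528 FPKM in DMSO libraries (SD, n = 3 each), with a log2 fold change of -0.30 (limma adjusted p = 0.133). It passed without PRMT5i replicate 2, at -0.36 (limma adjusted p = 0.0302). PSMG2, its partner in the first step of α ring assembly, had 10.7, 10.8 and 9.65 FPKM in PRMT5i libraries, against 8.99, 10.3 and 8.07 FPKM in DMSO libraries. The groups overlap, and the log2 fold change was 0.17 (limma adjusted p = 0.364), and 0.15 without PRMT5i replicate 2. PSMG3 had 25.6, 8.35 and 24.2 FPKM in PRMT5i libraries, against 23.2, 21.7 and 26.3 FPKM in DMSO libraries, with replicate 2 alone below the DMSO range. PSMG3 had a log2 fold change of -0.42 with all libraries, which turned to 0.07 without PRMT5i replicate 2 (limma adjusted p = 0.490 and 0.569). PSMG4, the least abundant, averaged 2.56 ± 0.880 FPKM in PRMT5i libraries and 2.69 ± 0.264 FPKM in DMSO libraries (SD, n = 3 each), with log2 fold changes of -0.08 and, without PRMT5i replicate 2, 0.14 (limma adjusted p = 0.807 and 0.289). PSMC3IP, the gene with a proteasome name only, had 7.18, 2.73 and 8.06 FPKM in PRMT5i libraries, against 6.09, 6.69 and 7.48 FPKM in DMSO libraries, with a log2 fold change of -0.25 (limma adjusted p = 0.635) that turned to 0.16 without PRMT5i replicate 2 (limma adjusted p = 0.264).

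Partners of the proteasome outside the PSM names were read from a list of 53 genes, of which 52 were tested. With all libraries limma called 10 lower and 1 higher, against 10.0% lower and 7.18% higher over all genes. Without PRMT5i replicate 2 it called 22 lower and 3 higher, against 23.1% and 17.5% over all genes. The median log2 fold change was -0.20 with all libraries and -0.18 without PRMT5i replicate 2, against -0.05 over all genes tested in both. With all libraries 35 of the 52 were negative, against 7429 of the 13578 genes tested.

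The calls included direct partners of the complex. ADRM1, a ubiquitin receptor of the 19S particle and so a subunit without a PSM name, had 40.6, 30.2 and 44.7 FPKM in PRMT5i libraries, against 92.4, 86.0 and 98.5 FPKM in DMSO libraries. Every PRMT5i library was far below every DMSO library. Its log2 fold change was -1.26 with an SE of 0.17 (limma adjusted p = 0.00714), and ADRM1 passed in all 6 limma fits that leave out a library, with -1.10 in the fit without PRMT5i replicate 2. SEM1, another 19S subunit without a PSM name, passed in neither fit, at log2 fold changes of -0.57 and, without PRMT5i replicate 2, -0.18 (limma adjusted p = 0.264 and 0.183). POMP, the chaperone that brings β subunits into the forming core, had 39.05, 29.04 and 33.2 FPKM in PRMT5i libraries, against 72.3, 72.1 and 59.1 FPKM in DMSO libraries. The groups did not overlap, and the log2 fold change was -0.99 with an SE of 0.15 (limma adjusted p = 0.0111), and -0.89 without PRMT5i replicate 2. AKIRIN2, which carries proteasomes into the nucleus, and ZFAND2A, a stress-induced proteasome-binding protein, fell, with log2 fold changes of -0.81 and -1.30 (limma adjusted p = 0.0364 and 0.0105), and of -0.59 and -1.08 without PRMT5i replicate 2. PAAF1, a protein that binds 19S ATPases, had a log2 fold change of 0.38 (limma adjusted p = 0.0897) and rose without PRMT5i replicate 2, at 0.48 (limma adjusted p = 0.00805). USP14 and UCHL5, deubiquitinases that bind the 19S particle, had log2 fold changes of 0.32 and 0.22 and did not pass (limma adjusted p = 0.202 and 0.512). Leaving out PRMT5i replicate 2 gave 0.19 and -0.01, so that the sign of UCHL5 rested on that library. SEM1 and PAAF1, and MAFK and NLRC5 below, are named after their values were seen.

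The regulators of proteasome genes gave mixed values. NFE2L1 had 32.2, 35.2 and 34.0 FPKM in PRMT5i libraries, against 33.5, 34.4 and 40.0 FPKM in DMSO libraries, and NFE2L2, a related factor of the oxidative stress response, had 10.99, 14.2 and 10.8 FPKM in PRMT5i libraries, against 11.3, 12.8 and 10.8 FPKM in DMSO libraries. The groups overlap for both. The log2 fold changes were -0.09 with a 95% confidence interval of -0.37 to 0.20 and 0.03 with one of -0.31 to 0.37 (limma adjusted p = 0.638 and 0.901), and -0.11 and -0.09 without PRMT5i replicate 2. DDI2, the protease that activates NFE2L1, had a log2 fold change of -0.30 (limma adjusted p = 0.131) and passed without PRMT5i replicate 2 at -0.39 (limma adjusted p = 0.0105). NGLY1, which removes sugars from NFE2L1, was the 1 partner that rose with all libraries, at 7.61, 9.24 and 6.71 FPKM in PRMT5i libraries, against 4.84, 5.45 and 4.36 FPKM in DMSO libraries. Its groups did not overlap, and the log2 fold change was 0.58 (limma adjusted p = 0.0404), and 0.47 without PRMT5i replicate 2. MAFF and MAFG, small MAF proteins that pair with NFE2L1 and NFE2L2 on DNA, fell, with log2 fold changes of -1.53 and -1.40 (limma adjusted p = 0.00581 and 0.0282), and of -1.32 and -1.03 without PRMT5i replicate 2. MAFF had 3.75, 2.09 and 3.75 FPKM in PRMT5i libraries, against 10.999, 10.3 and 11.3 FPKM in DMSO libraries. All PRMT5i libraries were far below the DMSO libraries. MAFK, the most abundant small MAF gene in these libraries, averaged 77.7 ± 36.8 FPKM in PRMT5i libraries and 85.9 ± 11.8 FPKM in DMSO libraries (SD, n = 3 each). It passed in neither fit, at log2 fold changes of -0.28 and, without PRMT5i replicate 2, 0.20 (limma adjusted p = 0.656 and 0.225).

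UBB, a polyubiquitin gene, had 224, 127 and 238 FPKM in PRMT5i libraries, against 355, 353 and 355 FPKM in DMSO libraries. All PRMT5i libraries were far below the DMSO libraries, and replicate 2 was the lowest. UBB missed the threshold at a log2 fold change of -0.90 with an SE of 0.25 (limma adjusted p = 0.0543). Without that library it was -0.61 with an SE of 0.05 (limma adjusted p = 0.000812). NSFL1C and NPLOC4, cofactors of the p97 unfoldase that hands substrates to the proteasome, fell, with log2 fold changes of -0.86 and -0.47 (limma adjusted p = 0.00581 and 0.0285), and of -0.84 and -0.49 without PRMT5i replicate 2.

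Among the interferon-linked genes, 2 of the 7 tested were lower, against 10.0% of all genes, and 3 without PRMT5i replicate 2, against 23.1%. IRF1, a transcription factor for immunoproteasome genes, had 1.27, 0.843 and 1.22 FPKM in PRMT5i libraries, against 3.37, 3.71 and 3.82 FPKM in DMSO libraries, with 88 reads or more in each. The groups were far apart, and the log2 fold change was -1.14 with an SE of 0.13 (limma adjusted p = 0.00493), and -1.04 without PRMT5i replicate 2. TAP1, the peptide transporter gene that lies beside PSMB9, had 8.77, 6.93 and 8.53 FPKM in PRMT5i libraries, against 14.2, 16.1 and 13.9 FPKM in DMSO libraries. Its groups did not overlap either, with a log2 fold change of -0.80 and an SE of 0.13 (limma adjusted p = 0.0117), and -0.70 without PRMT5i replicate 2. NLRC5, an activator of MHC class I genes, had 3.36, 4.16 and 4.36 FPKM in PRMT5i libraries, against 2.47, 2.78 and 3.29 FPKM in DMSO libraries. Its groups did not overlap, and it passed neither with all libraries nor without PRMT5i replicate 2, at log2 fold changes of 0.37 and 0.34 (limma adjusted p = 0.119 and 0.1001). With trends on gene length and GC content removed it passed (limma adjusted p = 0.0474).

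**Figure D5:**
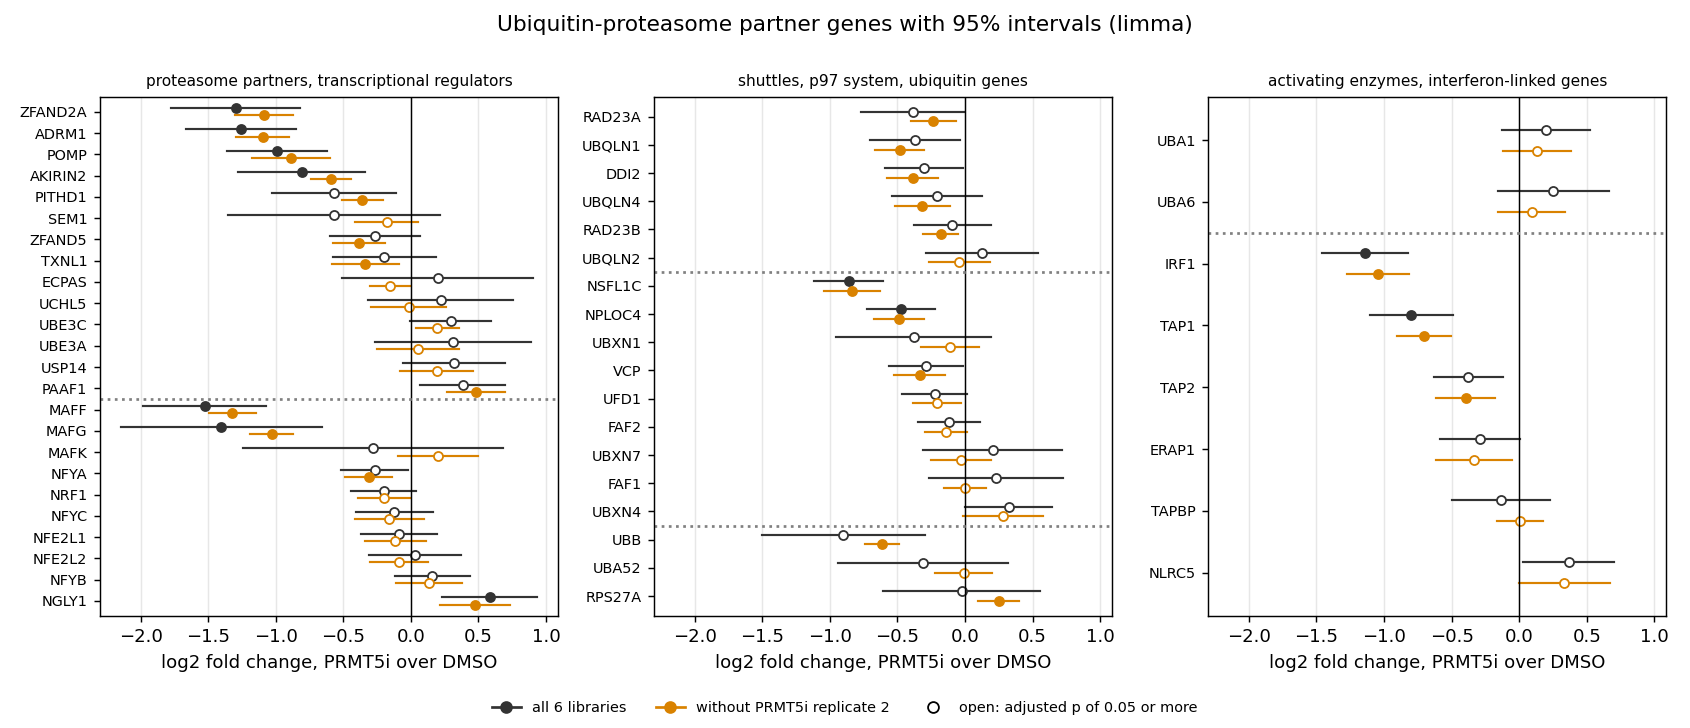
Log2 fold change (PRMT5i over DMSO, on the log2(FPKM + 1) scale, with 95% confidence intervals) of 50 of the 52 partner genes tested, in 7 groups, with all libraries and without PRMT5i replicate 2; filled points passed an adjusted p under 0.05 in limma. MAFF, MAFG, ZFAND2A, ADRM1 and IRF1 lie below -1 and NGLY1 lies above 0, while NFE2L1 and NFE2L2 lie at -0.09 and 0.03.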

How the data were processed

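The authors deposited 1 table of FPKM values with a length for each gene, 1 column per library; the submitters' processing notes name the build hg38, and no aligner, counter or annotation release is named in the labels. Per the labels' protocols a directional kit was used on total RNA. No source says whether counting used strand, so overlapping genes are uncertain. Of the 49 genes, 8 share exon bases with a gene on the same strand and 19 with a gene on the other strand. Each FPKM value times its listed length gave a whole number of reads times 1 factor per library (tolerance 0.01 reads, 100% of values), so reads were recovered. Listed lengths equalled the GENCODE 29 exon union for all 49 genes.

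The 13578 genes with 3 or more of the 6 libraries at 1 FPKM or above were fitted as log2(FPKM + 1) with limma 3.58.1 in R 4.3.3 (mean-variance trend, two-sided, no block, Benjamini-Hochberg, threshold 0.05). A pseudocount understates the fold change of low genes. The steps were tested on simulated data. The members and lists were chosen with earlier results of these data known. Named were members called with all libraries or without PRMT5i replicate 2, the extremes of level in each class, the catalytic subunits, PSMC3IP, 12 fixed partners (2 of which are not reported here) and up to 10 called partners of smallest adjusted p. Alternatives covered pseudocount, filter, scaling, library weights, length and GC trends (loess, span 0.3), limma-voom on recovered reads, a replicate block and leaving out each library. Removing length and GC trends without PRMT5i replicate 2 was added after seeing the data.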

Additional observations from a re-analysis of the deposited data

How the results depend on the processing

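Of 45 proteasome genes, 19 were called lower and 0 higher with all libraries. Counts of lower calls were 11 under quantile normalization, 33 with estimated library weights and 2 at an adjusted p under 0.01. They were 30 without PRMT5i replicate 2 and with the length trend removed, and 30 with the GC trend removed as well. Over all 13578 genes tested, 7.76% were lower under quantile normalization, and 25.9% without PRMT5i replicate 2 and with both trends removed. Calls over all genes in either direction were 2339 with all libraries, 7697 with library weights and 543 at 0.01. They were 5528 without PRMT5i replicate 2 and with the length trend removed. Higher calls were 3 with library weights and 1 after removing length and GC trends. They were 3 in both of the fits that drop PRMT5i replicate 2 and remove trends. Over all genes tested, 14.1% were higher after removing length and GC trends, and 3056 of the 13578 when PRMT5i replicate 2 was also dropped. The 8 lower calls of the 20S class became 3 with no filter, 4 under quantile normalization, 4 with the replicate block and 0 at 0.01. The 10 of the 19S class became 18 with library weights, 17 in both trend fits without PRMT5i replicate 2 and 2 at 0.01. The 1 lower activator became 0 under quantile normalization, with the replicate block and at 0.01, and 2 with library weights. The 0 assembly genes became 1 with library weights and in both trend fits without PRMT5i replicate 2. Leaving out 1 library gave 1 to 30 lower and 0 to 3 higher proteasome genes, 0 to 11 for 20S, 1 to 17 for 19S, 0 to 1 for activators and 0 to 1 for assembly, with the high ends reached without PRMT5i replicate 2. The cause was not tested.

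The median log2 fold change of the proteasome genes, -0.48, was -0.51 with a pseudocount of 0.1, -0.46 with no filter, -0.54 as TPM, -0.33 under quantile normalization, -0.51 with limma-voom on recovered reads, -0.39 with the length trend removed and -0.41 after removing length and GC trends. It was -0.46 without PRMT5i replicate 2 and with the length trend removed, -0.44 with GC removed too, and -0.50 to -0.44 when 1 library was left out. PSME1, at -0.14 with all libraries, turned to 0.31 with library weights, 0.25 without PRMT5i replicate 2, 0.26 with the length trend also removed and 0.28 once GC was removed as well, and leaving out 1 library gave -0.38 to 0.25. The partner list, with 10 lower and 1 higher, gave 25 and 7 with library weights and 17 and 5 after removing length and GC trends. It gave 21 and 4 without PRMT5i replicate 2 and with the length trend removed, and 22 and 7 with GC removed too. At 0.01 it gave 4 and 0, and with no filter 0 were higher. Leaving out 1 library gave 4 to 22 lower and 0 to 3 higher. Over all genes tested, 15.2% were lower and 14.1% higher after removing length and GC trends.

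Over all genes, 2339 calls became 1533 with no filter, 1505 with a filter at 5 FPKM, 7697 with library weights, 1478 with the replicate block, 3974 after removing length and GC trends, 5528 and 6567 in both trend fits without PRMT5i replicate 2, 543 at 0.01, and 478 to 5513 when 1 library was left out. Same-numbered libraries were not shown to be paired, with correlations of their deviations of -0.02, 0.16 and 0.25; the replicate block left 13 proteasome genes lower, against 19 without it, and 6.42% of all genes lower. With 3 libraries a group, and 1 of the 6 standing apart, the number of calls changed both with the libraries that entered and with the settings of the fit. The limits given for genes at 0 cover counting error only.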

Other observations

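The 19S lid, the COP9 signalosome and the translation initiation factor eIF3 share a common architecture, and the other complexes were read from lists added after the values of the proteasome genes were seen. Of 9 COP9 signalosome genes, 1 was lower and 0 higher with all libraries, and 2 were lower and 0 higher without PRMT5i replicate 2, against 10.0% and 23.1% of all genes lower. Quantile normalization, the replicate block and the removal of length and GC trends each left 0 lower. Limma-voom on recovered reads and TPM each gave 2 lower, against 10.8% and 9.04% of all genes. Without PRMT5i replicate 2 and with length and GC trends removed, 3 were lower and 1 higher. Over all 13578 genes tested, 25.9% were lower and 3056 genes higher in that fit. The 1 lower with all libraries was COPS5, the deubiquitinase-like subunit that removes NEDD8 from cullins. It had 7.22, 6.53 and 6.79 FPKM in PRMT5i libraries, against 9.30, 9.45 and 9.83 FPKM in DMSO libraries. Its log2 fold change was -0.42 with an SE of 0.10 (limma adjusted p = 0.0326). Of 13 eIF3 genes, 0 were lower and 0 higher with all libraries by limma on FPKM, against 10.0% and 7.18% of all genes. At an unadjusted p under 0.05, 3 were lower and 1 higher, against 2712 of the 13578 genes tested that were lower. Limma-voom on recovered reads called 1 of the 13 lower, against 10.8% of all genes. Without PRMT5i replicate 2 limma called 3 lower and 1 higher, against 23.1% and 17.5% of all genes. With length and GC trends also removed it called 5 lower and 3 higher, against 25.9% of all genes lower and 3056 of the 13578 higher. The median log2 fold changes of these lists were -0.24 and -0.07 with all libraries, against -0.61 for the 17 structural 19S genes and -0.05 over all genes tested. Without PRMT5i replicate 2 they were -0.11 and -0.05, against -0.66 for the structural 19S genes. These are counts and medians side by side, and the difference between the lists was not tested.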
